A study of Homo sapiens with 4 samples.

Results

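The nuclear lamina and the LINC complex (linker of nucleoskeleton and cytoskeleton) are represented here by 9 genes, LMNA, LMNB1, LMNB2, LBR, TMPO, SUN1, SUN2, SYNE1 and SYNE2, and the question was whether chromatin contacts at these genes differed after lasting loss of TDP-43. The genes were chosen by name and not by their contact values, though with earlier results of these data known. A listed pair of 50 kb bins was assigned to a gene when at least 1 of its bins overlapped the gene body in hg38, which gave 117 of the 89239 listed pairs, 34 of them contacts within a single bin and 83 contacts between different bins. All 9 genes had listed pairs, as did 18699 of the 20033 protein-coding genes. No pair was shared between 2 of the 9 genes.

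Lamins are intermediate filament proteins that form a mesh under the inner nuclear membrane. A-type lamins come from LMNA, and the B-type lamins from LMNB1 and LMNB2. LBR, the lamin B receptor, spans the inner membrane and holds heterochromatin at the nuclear edge, and TMPO encodes the lamina-associated polypeptides of the LAP2 family, which bind lamins and chromatin. SUN1 and SUN2 span the inner membrane and meet the KASH domains of the nesprins, encoded by SYNE1 and SYNE2, in the space between the membranes, so that the lamina is tied to the cytoskeleton. Chromatin next to the lamina is mostly silent and poor in genes, and changes of the nuclear envelope have been described in neurodegenerative disease. None of the values below measures RNA, protein or contact with the lamina itself.

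The assay was Micro-C, in which chromatin is cut with micrococcal nuclease and touching fragments are ligated and sequenced, and the cells were SH-SY5Y, an established human neuroblastoma cell line. The knockdown group consisted of 2 libraries from cells carrying a lentiviral shRNA against TDP-43 (shTDP-43), and the control group of 2 libraries from cells labelled control, for which the protocols describe a control shRNA (shNC). Puromycin was used at 2 µg/mL over 2 weeks to select the stable lines and at 1 µg/mL to maintain them, so they are selected populations and not an acute depletion. The labels do not say that libraries of a group came from separate cultures, and the p-values then measure only the spread between these libraries, which may be technical. The counts do not measure expression, so they give no check of the depletion of TDP-43. The listed contacts of a library totalled 115168160 and 142424414 in the knockdown group and 158400914 and 163147992 in the control group.

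Promoter sequences are shown first for 4 of the genes whose start bins are described below. LBR and SUN2 have the lowest and the highest GC content of the 8 member promoter windows read from RefSeq (GRCh38.p14), 1 per gene. RefSeq lists 1 promoter for LBR, 3 for SUN2, 4 for SYNE1 and 3 for LMNA, and the others were not read. SYNE1 holds the single pair of the long nesprin genes that passed the test. LMNA is the gene whose direction depended on how abundance was treated. Each sequence covers the 250 bases before the annotated start, 5′ to 3′ on the gene's strand. Capitals mark the matches on either strand to TGTGTG, a TG repeat of the kind TDP-43 binds, to CCAAT, the box bound by NF-Y, and to GGGCGG, the GC box bound by Sp1. The windows are chr1:225428822-225429071 on the minus strand for LBR, chr22:38755999-38756248 on the minus strand for SUN2, chr6:152637363-152637612 on the minus strand for SYNE1 and chr1:156082323-156082572 on the plus strand for LMNA.
LBR: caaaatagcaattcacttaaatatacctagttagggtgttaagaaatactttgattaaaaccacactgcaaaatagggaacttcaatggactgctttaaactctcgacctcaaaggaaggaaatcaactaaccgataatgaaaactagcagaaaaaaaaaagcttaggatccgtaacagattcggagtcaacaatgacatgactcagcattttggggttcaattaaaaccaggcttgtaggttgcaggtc
SUN2: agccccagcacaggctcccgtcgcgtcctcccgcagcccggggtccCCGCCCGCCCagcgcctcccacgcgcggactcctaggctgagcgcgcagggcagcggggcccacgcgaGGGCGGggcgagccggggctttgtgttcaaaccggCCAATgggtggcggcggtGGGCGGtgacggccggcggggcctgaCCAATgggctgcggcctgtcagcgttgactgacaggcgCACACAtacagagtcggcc
SYNE1: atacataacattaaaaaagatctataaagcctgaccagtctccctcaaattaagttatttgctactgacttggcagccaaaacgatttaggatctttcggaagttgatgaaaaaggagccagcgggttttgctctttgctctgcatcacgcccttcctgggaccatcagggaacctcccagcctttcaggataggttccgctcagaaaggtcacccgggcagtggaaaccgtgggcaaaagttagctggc
LMNA: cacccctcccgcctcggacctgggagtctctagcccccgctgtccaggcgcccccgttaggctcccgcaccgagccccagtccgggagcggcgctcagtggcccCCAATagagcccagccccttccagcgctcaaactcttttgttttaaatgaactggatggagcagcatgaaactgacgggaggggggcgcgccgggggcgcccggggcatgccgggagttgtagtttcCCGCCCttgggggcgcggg

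The LBR window is AT-rich, with a GC content of 36.8% and 4 CpG dinucleotides, and holds none of the 3 motifs. The SUN2 window has 74.8% GC and 30 CpG, with 1 match to TGTGTG, 2 to CCAAT and 4 to GGGCGG, of which 2 overlap. SYNE1 had 47.6% GC with 7 CpG and no match, and LMNA 68.8% GC with 21 CpG, 1 CCAAT box and 1 GC box. The median of all 35116 RefSeq promoter windows of this length was 58.0% GC and 11 CpG. TGTGTG was found in 1 of the 8 member windows, against 14.3% of all windows. CCAAT was found in 3 of 8 (LMNA, TMPO and SUN2) against 32.0%, and GGGCGG in 5 of 8 against 42.6%. The member windows are 1 per gene, while the full set holds more than 1 for some genes. These matches describe letters in a window and not binding.

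With TMM scaling, contacts within bins were lower in TDP-43 knockdown than in control cells at 11 of 13 bins of the 7 compact genes. They were lower at 1 of the 21 bins of the long nesprin genes. The share of lower calls among the 1000 bins nearest in level ran from 4.6% to 99.6% around the compact-gene bins. Around the nesprin bins it ran from 0.6% to 26.5%. The compact-gene bins lay at percentiles 59.8 to 99.8 of all bins by level, and the nesprin bins at 14.3 to 83.7. The contrast between the 2 sets thus goes along with level, and a contrast apart from level was not tested. With the trend removed, as described below, 7 of the 13 compact-gene bins were lower and 2 higher, against 5.12% and 7.89% of all bins. Among the 1000 bins nearest in level to each, these shares were larger for most, at 3.8% to 32.1% lower and 9% to 18.2% higher. Around the 2 higher bins, both of LMNA, 13.7% and 14.5% were higher. Levels are counts scaled to CPM, the usual unit per sequencing depth, over the listed contacts with library sizes scaled by TMM, and fold changes are log2 values of knockdown over control from edgeR's quasi-likelihood test, with p-values adjusted over all 89239 pairs and a threshold of 0.05. Of the 117 pairs, 21 (17.9%) were lower in knockdown and 0 were higher, against 10.5% lower and 5.76% higher over all pairs. The 117 pairs had a median log2 fold change of -0.11, against 0.02 for the whole table. Contacts within a bin gave 12 of 34 lower, against 14.3% of all bins, and contacts between bins 9 of 83, against 5.84%. All 9 of these between-bin pairs belonged to SUN1, and none of the 62 between-bin pairs of the other genes passed with TMM. Knockdown and control libraries did not overlap in 63 of the 117 pairs (53.8%), against 56.1% of all pairs, so that count does not set these genes apart.

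Across the whole table, the fold change fell with the level of a pair, and the fold changes in the authors' deposited table have that trend removed. A second fit with a loess curve of the fold change on abundance taken out of each library gave 19 lower pairs and 2 higher ones among the 117, against 5.97% lower and 4.98% higher over all pairs. Of these, 16 pairs were lower in both fits. The 2 higher pairs were the bins of LMNA, which were lower with TMM. Both values are given below for each gene, as the TMM value and the value with the trend removed.

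**Figure D1:**
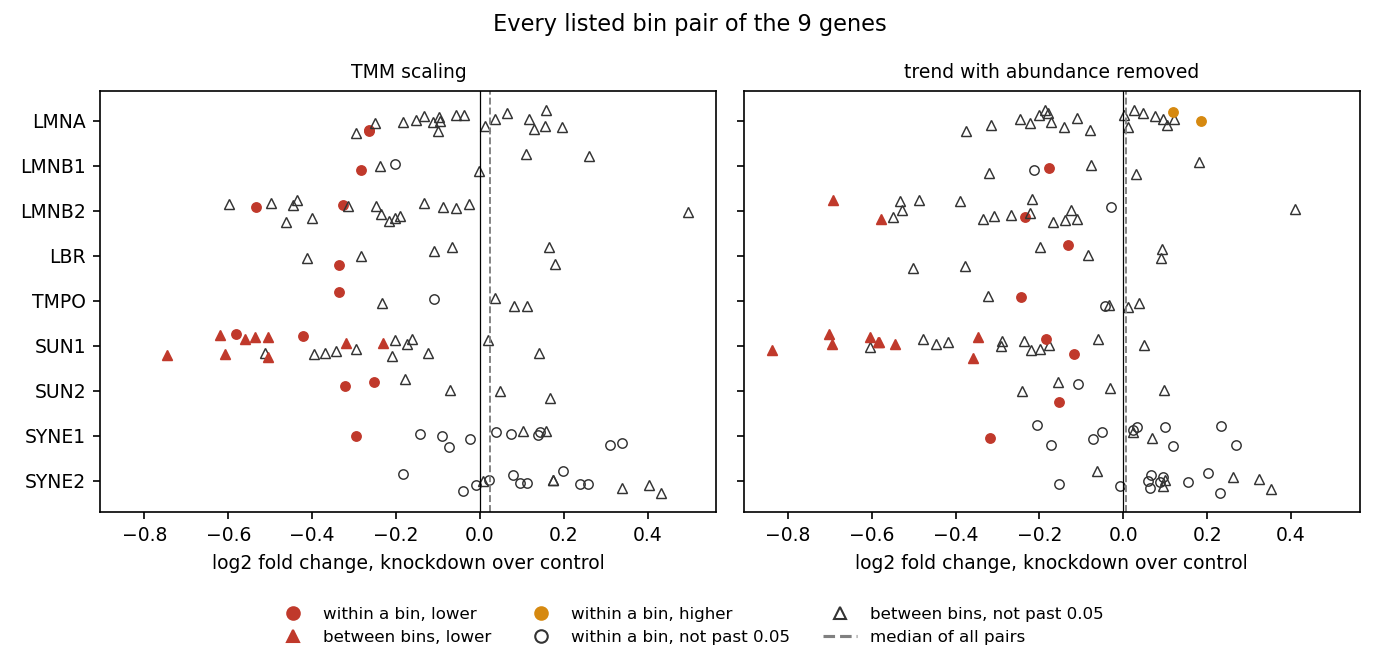
Log2 fold change of contacts (knockdown over control) for every listed bin pair of the 9 genes, with TMM scaling on the left and with the trend with abundance removed on the right. Circles are contacts within a bin and triangles contacts between bins, filled where the adjusted p was under 0.05, and the dashed line is the median of all listed pairs. SUN1 holds 11 of the 21 filled symbols on the left, and the 2 LMNA circles lie left of 0 with TMM and right of 0 with the trend removed.

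Among the lamins, LMNA (chr1:156082573-156140081, plus strand, 57509 bases) lay in 2 bins with some of the highest contact levels of the genome. Its start bin (chr1:156050001-156100000), which also holds UBQLN4, LAMTOR2, RAB25 and MEX3A, had 103 and 105 CPM in knockdown cells, against 125 and 124 CPM in control cells. The groups did not overlap, and 98.8% of all bins had a lower level. The TMM log2 fold change was -0.26 (SE 0.05, adjusted p = 8.21e-05), while taking the trend out gave 0.12 (SE 0.03, adjusted p = 0.00934). The second bin (chr1:156100001-156150000), shared with SEMA4A, had 139.5 and 141 CPM in knockdown cells, against 163 and 175 CPM in control cells, a TMM change of -0.26 (SE 0.06, adjusted p = 9.88e-05) and, with the trend removed, 0.19 (SE 0.03, adjusted p = 8.77e-07).

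Bright bins as a whole were lower with TMM. Of the 1000 bins nearest in level to the LMNA start bin, 99.0% were lower in knockdown with TMM, at a median log2 fold change of -0.41. The median around the second bin was -0.42, so with TMM both LMNA bins fell by less than the median bin of their level. Neither call held with TMM when 1 knockdown library was left out (adjusted p between 0.0627 and 0.146). The 19 between-bin pairs of LMNA, which reached 300 kb, gave no call in either fit, with TMM log2 fold changes between -0.30 and 0.20 and the lowest adjusted p at 0.189. Contacts between the 2 LMNA bins were 23.5 and 24.8 CPM in knockdown cells, against 24.5 and 25.8 CPM in control cells, and the groups overlapped.

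LMNB1 (chr5:126776623-126837020, plus strand, 60398 bases), which encodes lamin B1, changed at its start. The bin that holds the start (chr5:126750001-126800000) and no other protein-coding gene had 27.9 and 27.1 CPM in knockdown cells, against 34.0 and 32.9 CPM in control cells. All knockdown libraries were below all control libraries, with a TMM log2 fold change of -0.28 (SE 0.06, adjusted p = 0.000101) and -0.18 (SE 0.06, adjusted p = 0.021) with the trend removed. Of the 1000 bins nearest in level, 27.3% were lower with TMM, at a median of -0.08. The second LMNB1 bin had 9.37 and 10.8 CPM in knockdown cells, against 13.3 and 9.86 CPM in control cells, so the groups overlapped (adjusted p = 0.13), and it passed as lower without control replicate 2 (-0.40, adjusted p = 0.000626). The 4 between-bin pairs, at up to 100 kb, did not pass in either fit.

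LMNB2 (chr19:2428166-2456959, minus strand, 28794 bases), the lamin B2 gene, had the largest change among the lamins. Its second bin (chr19:2400001-2450000), which also holds TMPRSS9 and TIMM13, had 61.9 and 64.4 CPM in knockdown cells, against 86.7 and 96.0 CPM in control cells, a TMM change of -0.53 (SE 0.06, adjusted p = 2.98e-15) and -0.23 (SE 0.04, adjusted p = 5.33e-07) with the trend removed. Its start bin, shared with GADD45B, had 68.9 and 68.3 CPM in knockdown cells, against 83.4 and 88.8 CPM in control cells. There the TMM value of -0.33 (SE 0.05, adjusted p = 5.39e-07) was close to the median of -0.30 of the 1000 bins nearest in level, and after removal of the trend it was -0.03 (SE 0.04, adjusted p = 0.694). The 2 neighbouring bins of nearly the same level thus differed in how far they moved, and that difference was not tested.

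Contacts of LMNB2 with its surroundings leaned the same way. Of its 17 between-bin pairs, 16 had a negative TMM log2 fold change, with a median of -0.24 against 0.02 over all between-bin pairs. None passed with TMM, 2 passed as lower without control replicate 1, 1 passed as lower without knockdown replicate 2 and 1 as higher without control replicate 2. With all libraries, TMM scaling within distance classes called 2 lower and 1 higher, and a fit with a replicate block called 1 lower. With the trend removed, 2 passed as lower. Summed over all 17 between-bin pairs, LMNB2 was lower with TMM (-0.20, adjusted p = 0.00766) and with the trend removed (-0.26, adjusted p = 0.00163). Of the 2 pairs lower with the trend removed, the first joined the second LMNB2 bin to a bin 250 kb away. That bin holds AP3D1 and DOT1L, the histone H3K79 methyltransferase gene. The pair had 1.11 and 1.39 CPM in knockdown cells, against 1.63 and 2.17 CPM in control cells (-0.69, SE 0.23, adjusted p = 0.0359). The other pair joined the second LMNB2 bin to a GNG7 bin 150 kb away, at -0.58 (SE 0.19, adjusted p = 0.0305). LMNB2 lies 2.43 Mb from the end of chromosome 19, and 34.5% of the 414 listed pairs in the first 5 Mb of that chromosome were lower with TMM. The share of that position in the LMNB2 values was not tested.

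LBR (chr1:225401502-225428821, minus strand, 27320 bases) lies within a single bin that holds no other protein-coding gene. That bin had 43.8 and 42.7 CPM in knockdown cells, against 53.6 and 55.5 CPM in control cells. The groups stood apart, with a TMM log2 fold change of -0.33 (SE 0.06, adjusted p = 3.64e-07) and -0.13 (SE 0.04, adjusted p = 0.0343) with the trend removed. Among the 1000 bins nearest in level the TMM median was -0.18, and 61.1% were lower. No between-bin pair of LBR passed in either fit. Its contact with the bin of EPHX1 and TMEM63A, 400 kb away, had 1.35 and 1.55 CPM in knockdown cells, against 2.26 and 1.60 CPM in control cells (-0.41, SE 0.23, adjusted p = 0.215).

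TMPO (chr12:98515573-98550351, plus strand, 34779 bases) fell at its start bin in both fits. The bin, which holds TMPO and no other protein-coding gene, had 25.2 CPM in each of the 2 knockdown libraries, against 33.1 and 30.6 CPM in control cells. The TMM log2 fold change was -0.34 (SE 0.06, adjusted p = 4.8e-06), and -0.24 (SE 0.06, adjusted p = 0.00136) with the trend removed. Bins of like level, again the nearest 1000, had a TMM median of -0.07, with 25.3% lower. The bin that holds the end of TMPO and 1 further gene had 23.7 and 22.4 CPM in knockdown cells, against 26.0 and 23.7 CPM in control cells, and the groups overlapped. None of the 4 between-bin pairs passed.

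**Figure D2:**
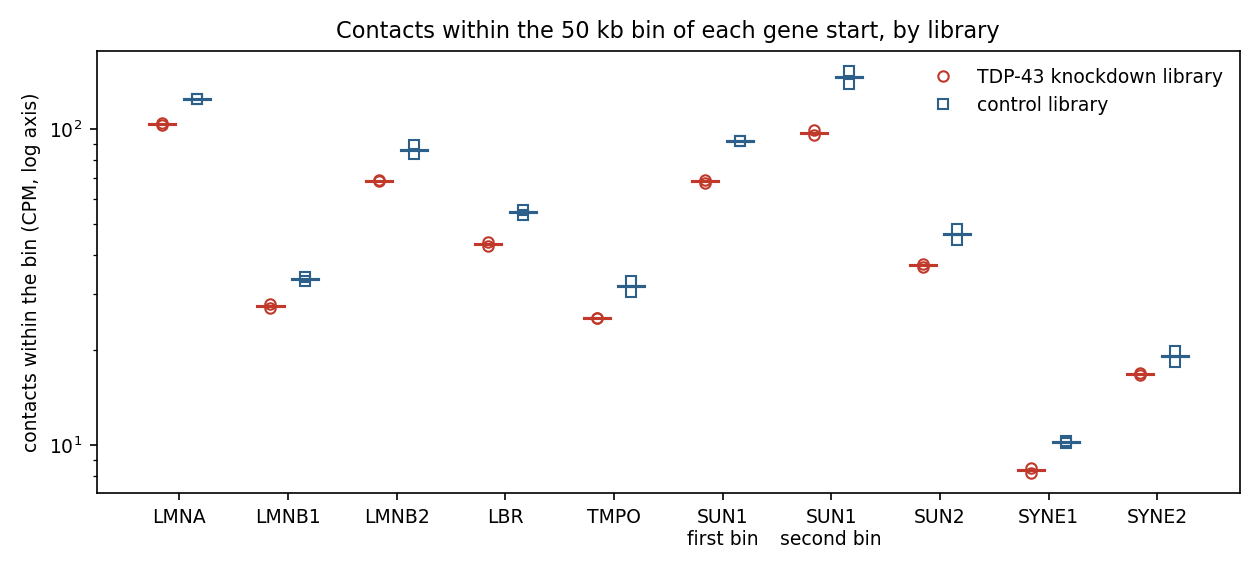
Contacts within the 50 kb bin that holds the start of each gene, in CPM with TMM scaling on a log axis, with both SUN1 bins shown. Circles are the 2 knockdown libraries and squares the 2 control libraries, and bars are group means. In each bin shown, both knockdown libraries lie below both control libraries. The widest gap is at the second SUN1 bin (96.1 and 99.0 CPM in knockdown cells, against 139 and 153 CPM in control cells). Libraries of the groups did not overlap in 56.1% of all listed pairs, and with the trend removed the LMNA start bin was higher in knockdown.

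SUN1 (chr7:815557-874934, 59378 bases), the inner membrane protein that also tethers telomeres in meiosis, changed most of the 9 genes. Of its 23 pairs, 11 (47.8%) were lower with TMM and 11 with the trend removed. The first of its bins (chr7:800001-850000), which holds SUN1 and no other protein-coding gene, had 67.4 and 69.2 CPM in knockdown cells, against 91.6 and 91.5 CPM in control cells. This was a TMM log2 fold change of -0.42 (SE 0.05, adjusted p = 8.8e-11) and -0.12 (SE 0.04, adjusted p = 0.0216) with the trend removed. Its second bin (chr7:850001-900000), with GET4 and ADAP1, had 96.1 and 99.0 CPM in knockdown cells, against 139 and 153 CPM in control cells, a change of -0.58 (SE 0.06, adjusted p = 4.4e-17) and -0.18 (SE 0.03, adjusted p = 6.9e-06) with the trend removed. Among the 1000 bins nearest in level, TMM medians were -0.31 and -0.41, so both SUN1 bins fell by more than the median bin of their level. Set against the bins of its chromosome end, described below, the first SUN1 bin was close to the median with TMM.

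SUN1 also changed in its contacts with its neighbourhood. Of 21 between-bin pairs, 9 (42.9%) were lower with TMM, and 19 had a negative log2 fold change. Of the 9, 6 involved the second SUN1 bin alone, 2 the first alone, and 1 joined both. The strongest by adjusted p joined the second bin to the adjoining ADAP1 bin, with 12.4 and 12.6 CPM in knockdown cells, against 18.0 and 18.8 CPM in control cells (TMM -0.56, SE 0.08, adjusted p = 1.03e-09). Removing the trend left it at -0.54 (SE 0.08, adjusted p = 3.65e-08). A contact 550 kb away had 3.96 and 3.18 CPM in knockdown cells, against 4.88 and 5.45 CPM in control cells (TMM -0.54, SE 0.14, adjusted p = 0.00331). With TMM scaling within distance classes this contact was at -0.36 and did not pass (adjusted p = 0.0716). Without knockdown replicate 2 it was at -0.38. Others called with the second bin reached the bins of PDGFA and PRKAR1B, of DNAAF5, and of CHLSN and ZFAND2A.

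The largest SUN1 change past the threshold was the contact of the first bin with the ZFAND2A bin 350 kb away (chr7:1150001-1200000). It had 1.07 and 1.38 CPM in knockdown cells, against 2.13 and 2.00 CPM in control cells, from 130 and 205 counts in knockdown and 326 and 308 in control libraries. The TMM log2 fold change was -0.75 (SE 0.23, adjusted p = 0.0115), and without knockdown replicate 1 it was -0.58 and no longer passed (adjusted p = 0.295). The count of lower between-bin pairs was 2 without knockdown replicate 1, 3 without knockdown replicate 2, 5 without control replicate 2 and 4 by DESeq2, which called 9.02% of all pairs lower. The count was 6 with TMM scaling within distance classes, and 3 with library totals in place of TMM. These settings called 10.5% and 5.2% of all pairs lower. The 2 within-bin calls of SUN1 held under each of these settings.

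SUN1 lies 0.816 Mb from the end of the short arm of chromosome 7, in a stretch where contacts in general were lower. In the first 5 Mb of that chromosome, 40.8% of 519 listed pairs were lower with TMM, and 33.9% of the 422 between-bin pairs, which had a median log2 fold change of -0.29. The SUN1 between-bin pairs had a median of -0.34, close to that of the region. With the trend removed, 40% of the between-bin pairs of the region were lower, at a median of -0.32, and the SUN1 median was -0.42. Of the 97 within-bin pairs of the region, 69 were lower with TMM, at a median of -0.41, beside -0.42 and -0.58 at the SUN1 bins. With the trend removed that median was -0.07, beside -0.12 and -0.18. Within 5 Mb of any chromosome end, 29.8% of pairs were lower. A change particular to SUN1 and one of the whole chromosome end cannot be told apart here.

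**Figure D3:**
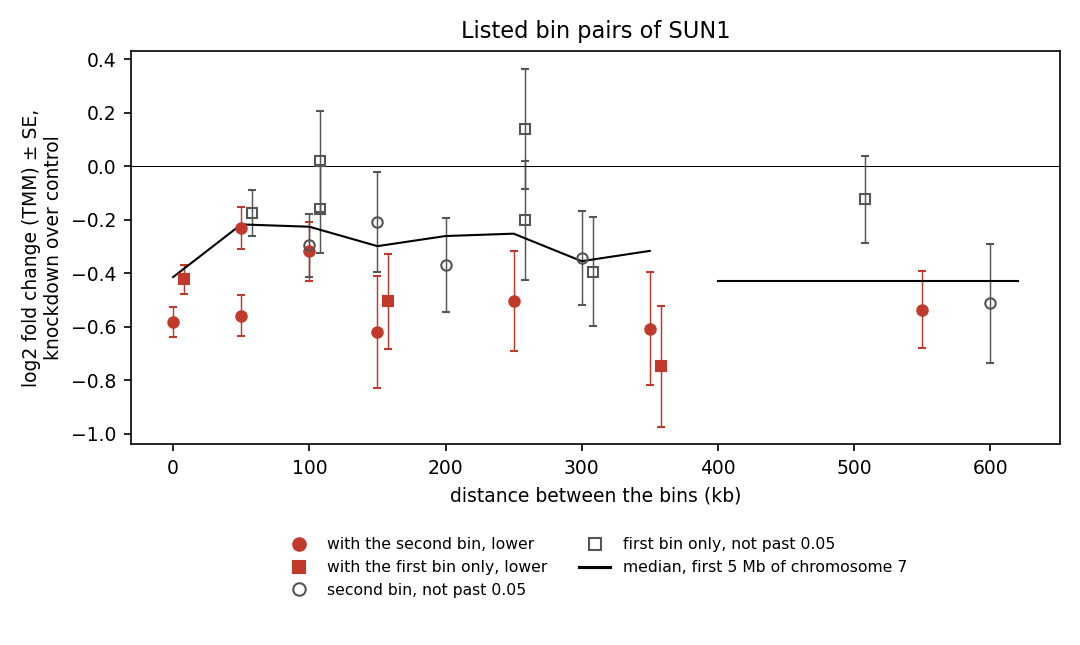
TMM log2 fold change ± SE (knockdown over control) of the 23 listed pairs of SUN1 by the distance between their bins in kb. Circles involve the second SUN1 bin and squares, moved 8 kb to the right, the first alone. Filled red symbols passed the threshold, and the line is the median of all pairs in the first 5 Mb of chromosome 7, with distances of 400 kb or more pooled. Most SUN1 pairs lie below 0, on both sides of the line.

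SUN2 (chr22:38734734-38755998, minus strand, 21265 bases), the other widely expressed SUN protein, changed within its bins and not between them. Its start bin, shared with DNAL4, had 36.7 and 37.6 CPM in knockdown cells, against 44.7 and 48.2 CPM in control cells. The TMM log2 fold change was -0.32 (SE 0.06, adjusted p = 1.4e-06), and -0.15 (SE 0.05, adjusted p = 0.0199) with the trend removed. At the end of the gene, the bin had 33.9 and 33.0 CPM in knockdown cells, against 37.1 and 42.5 CPM in control cells, with a TMM change of -0.25 (SE 0.06, adjusted p = 0.000364) and -0.11 (SE 0.05, adjusted p = 0.154) with the trend removed. That TMM call was lost without knockdown replicate 2 (-0.23, adjusted p = 0.0746) and without control replicate 2 (-0.15, adjusted p = 0.0508). Its 4 between-bin pairs had TMM values between -0.18 and 0.17, none past the threshold except, without control replicate 1, the one between its own bins (-0.37, adjusted p = 0.0463). SUN2 is 12.0 Mb from the nearest chromosome end.

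The nesprin genes are many times longer than the others. SYNE1 (chr6:152121687-152637362, minus strand, 515676 bases), which encodes nesprin-1, covers 11 bins, and SYNE2 (chr14:63761596-64226449, plus strand, 464854 bases), which encodes nesprin-2, covers 10. Of these 21 within-bin values, 1 was lower with TMM and 0 higher. Of the 13 within-bin values of the 7 other genes, 11 were lower with TMM, and 7 were lower and 2 higher with the trend removed. Over all bins, 14.3% were lower and 7.4% higher with TMM, and 5.12% lower and 7.89% higher with the trend removed. The shares among bins of like level, given above, differ from these. The bins of SYNE1 ranged from percentile 14.3 to 71.1 of all bins by level, where the TMM medians of like bins were between 0.01 and 0.12. Those of SYNE2 ranged from percentile 46.7 to 83.7, with medians of like bins between -0.08 and 0.10.

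The 1 call was the start bin of SYNE1 (chr6:152600001-152650000). It had 8.49 and 8.16 CPM in knockdown cells, against 10.3 and 10.2 CPM in control cells, a TMM log2 fold change of -0.30 (SE 0.10, adjusted p = 0.0212) and -0.32 (SE 0.10, adjusted p = 0.0249) with the trend removed. Among the 1000 bins nearest in level, 5.1% were lower, at a median of 0.08. The call was lost without knockdown replicate 1 (-0.32, adjusted p = 0.134), without knockdown replicate 2 (-0.27, adjusted p = 0.227) and with library totals in place of TMM (-0.16, adjusted p = 0.225). The other 10 SYNE1 bins lay between -0.14 and 0.34. The highest had 4.45 and 4.12 CPM in knockdown cells, against 3.42 and 3.36 CPM in control cells, and did not pass (adjusted p = 0.116). The bin with the end of SYNE1 is shared with ESR1, the estrogen receptor gene, and had overlapping groups.

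The start bin of SYNE2 was likewise the lowest along its gene, at 17.0 and 16.7 CPM in knockdown cells, against 19.9 and 18.3 CPM in control cells. It missed the threshold with a TMM log2 fold change of -0.18 (SE 0.07, adjusted p = 0.0658), and passed without control replicate 2 (-0.24, adjusted p = 0.0172). The start here is the first base of the gene body on the plus strand, while the RefSeq promoter listed first for SYNE2 lies inside the gene. Bins in the middle of SYNE2 had values above 0 that did not pass, the highest with 9.79 and 8.56 CPM in knockdown cells, against 8.01 and 7.32 CPM in control cells (0.26, SE 0.10, adjusted p = 0.0675). This bin passed without control replicate 1 (0.31, adjusted p = 0.0376). All 6 between-bin pairs of SYNE2 had TMM values above 0, up to 0.43, and none passed with all libraries, while 1 passed without control replicate 1 (0.83, adjusted p = 0.00449). The last SYNE2 bin, shared with ESR2, the second estrogen receptor gene, had overlapping groups.

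**Figure D4:**
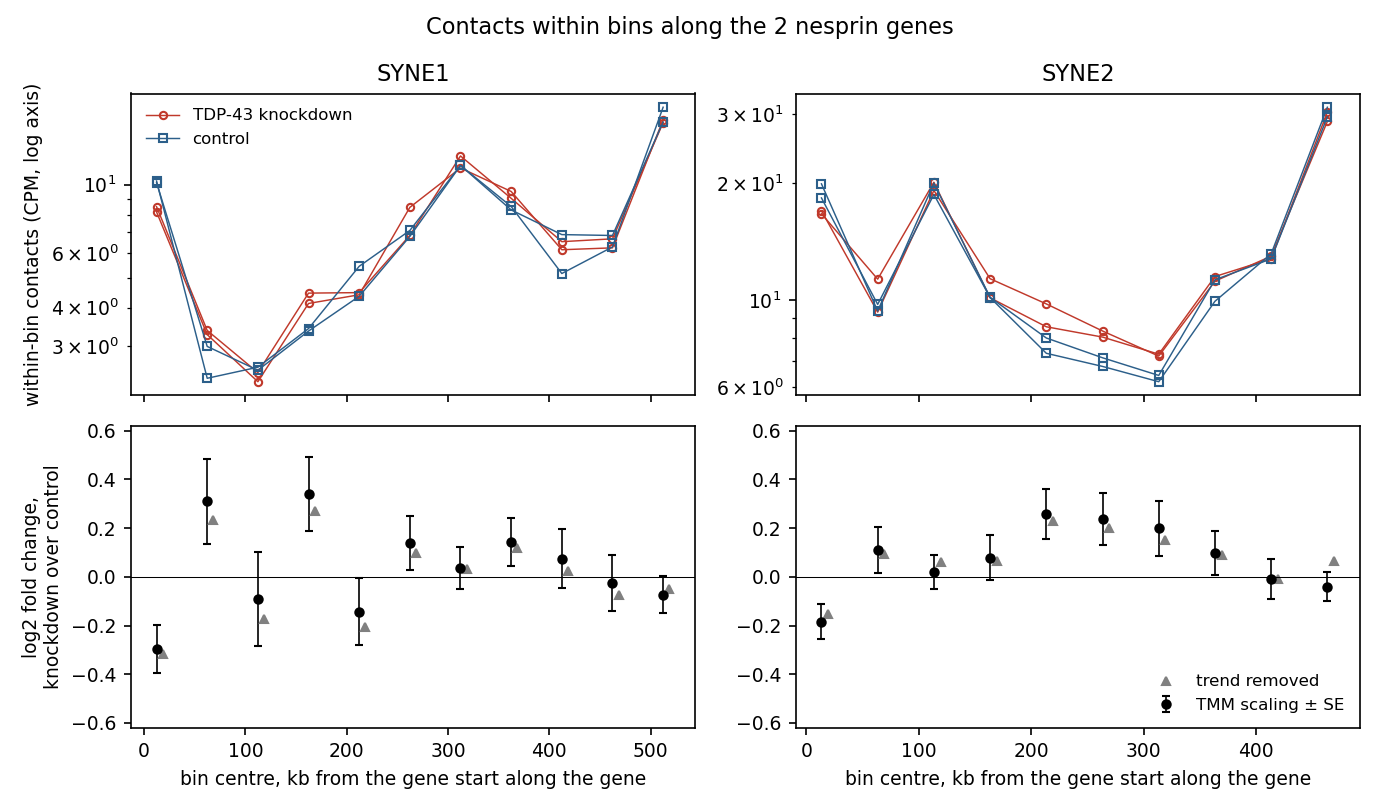
Contacts within bins along SYNE1 and SYNE2 by distance of the bin centre from the gene start in kb. The upper panels give CPM on a log axis for the 2 knockdown libraries (circles) and the 2 control libraries (squares). The lower panels give the log2 fold change, knockdown over control, with TMM scaling ± SE (points) and with the trend removed (triangles, moved 6 kb to the right). In both genes the first bin is the lowest by TMM, at -0.30 in SYNE1 and -0.18 in SYNE2, and of the bins shown the first of SYNE1 passed the threshold.

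Contacts summed over all listed pairs of a gene gave 1 value per gene and library. SUN1 had 247 and 255 CPM in knockdown cells, against 336 and 354 CPM in control cells, a TMM log2 fold change of -0.46 (SE 0.05, adjusted p = 2.56e-12) and -0.23 with the trend removed (SE 0.03, adjusted p = 1.23e-11). LMNB2 followed with 191 and 197 CPM in knockdown cells, against 239 and 259.9 CPM in control cells (TMM -0.36, SE 0.05, adjusted p = 6.02e-09). LBR, SUN2, LMNB1 and TMPO fell by TMM values of -0.25, -0.25, -0.20 and -0.18, and these 6 genes were lower with the trend removed as well, at -0.12 to -0.23. LMNA had 346 and 354 CPM in knockdown cells, against 394 and 409 CPM in control cells. It was lower with TMM (-0.20, SE 0.05, adjusted p = 0.000628) and higher with the trend removed (0.10, SE 0.02, adjusted p = 0.000895). Over all genes 40.1% of sums were lower and 7.99% higher with TMM, at a median of -0.08, so 7 lower of 9 stands beside a background in which lower sums were common. With the trend removed, 19.3% of all gene sums were lower and 11.2% higher.

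The nesprin sums did not pass. SYNE1 had 85.0 and 84.5 CPM in knockdown cells, against 84.5 and 83.7 CPM in control cells, a TMM log2 fold change of 0.01 (SE 0.04, adjusted p = 0.834), and SYNE2 had 153 and 155 CPM in knockdown cells, against 151 and 146 CPM in control cells, a change of 0.05 (SE 0.05, adjusted p = 0.373). Over the between-bin pairs alone, the SYNE2 sum was higher with TMM (0.23, SE 0.07, adjusted p = 0.0214) and not with the trend removed (0.15, SE 0.07, adjusted p = 0.133). Library totals in place of TMM factors shift the median of all pairs from 0.02 to 0.16, and the sums of SYNE1 (0.14, adjusted p = 0.00268) and SYNE2 (0.19, adjusted p = 0.000519) then passed as higher by about that shift. Among the 117 pairs, library totals gave 13 lower and 11 higher, against 5.2% and 19.5% of all pairs. With library totals the sums of LMNA (-0.06), LMNB1 (-0.07) and TMPO (-0.05) no longer passed, and LMNA also did not pass without knockdown replicate 1 (adjusted p = 0.228) or 2 (adjusted p = 0.131).

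**Figure D5:**
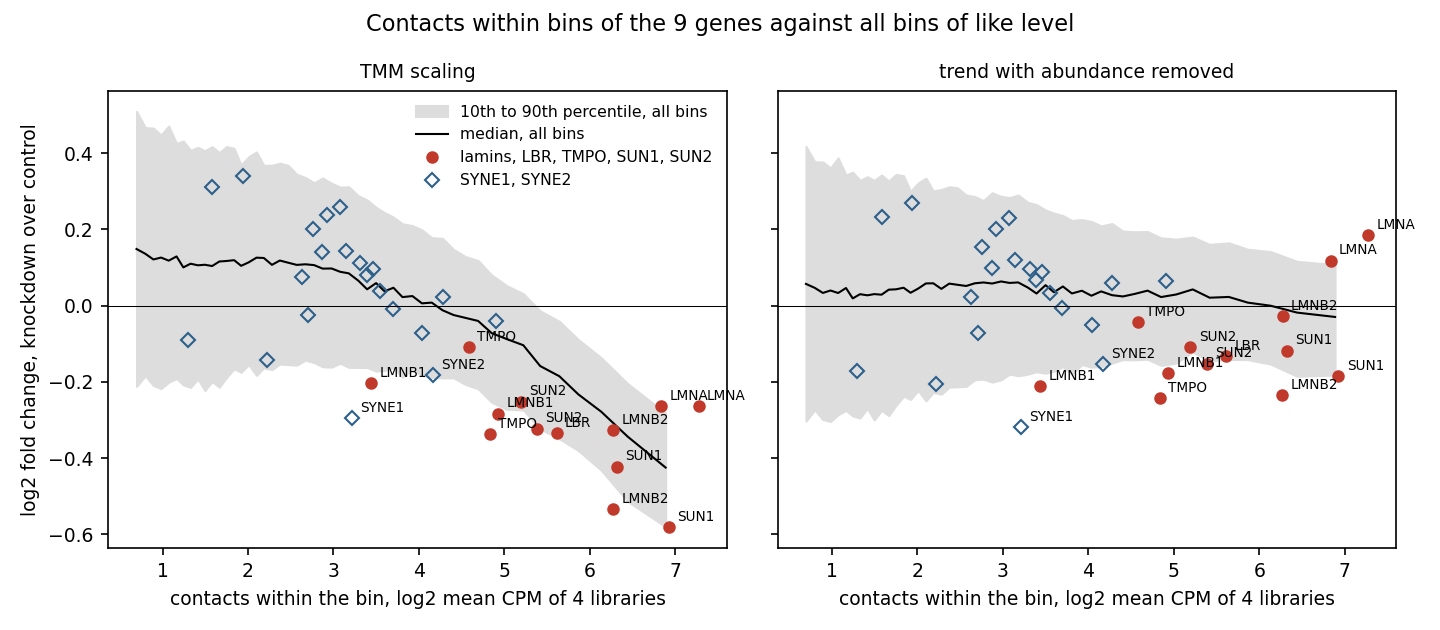
Log2 fold change (knockdown over control) of contacts within bins against the level of the bin, as log2 of the mean CPM over the 4 libraries, with TMM scaling on the left and the trend removed on the right. The line and the grey band are the median and the 10th to 90th percentile of all bins of like level. Red circles are the bins of the 7 compact genes, which with TMM lie below the median of the 1000 bins nearest in level except for the 2 LMNA bins, and blue diamonds are the bins of SYNE1 and SYNE2.

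Paralogues were set against each other within each library, as the log2 ratio of their summed contacts. SUN1 over SUN2 was 1.55 and 1.62 in knockdown libraries, against 1.82 and 1.76 in control libraries, a difference of -0.21 without overlap, and of -0.10, also without overlap, with the trend removed. LMNB2 over LMNB1 was 1.98 and 2.02 in knockdown libraries, against 2.05 and 2.27 in control libraries (difference -0.16), and with the trend removed the groups overlapped (-0.01). LMNA over LMNB1 overlapped with TMM (2.84 and 2.86 in knockdown libraries, against 2.77 and 2.93 in control libraries), whereas with the trend removed the groups stood apart by 0.25. SYNE1 over SYNE2 differed by -0.04, and by -0.08 with the trend removed, without overlap in either. With 2 libraries a group, the exact two-sided permutation test cannot go below p = 0.333, which the ratios without overlap reached, so none of the 4 comparisons could pass.

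Across the 4 libraries, the 3 genes on other chromosomes whose summed contacts were most like those of SUN1, by Euclidean distance between centred log2 CPM values among 18698 genes, were TMEM187 on chromosome X (distance 0.0101), BTBD2 on chromosome 19 (0.0122) and GAMT on chromosome 19 (0.0138). Their TMM log2 fold changes were -0.46, -0.45 and -0.47, beside -0.46 for SUN1. With so few libraries, this likeness says mainly that the size of the difference and the spread within groups were alike.

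Other genes of the nuclear envelope were read from 5 lists of 46 genes, 45 of which had a listed pair. With TMM, 31 had only lower differing pairs, 2 only higher, 4 both and 8 none, against 41.6% of all genes with only lower, 11.8% with only higher, 4.08% with both and 57.4% with any differing pair. With the trend removed, the counts were 15 only lower, 5 only higher, 2 both and 23 none, against 23.3%, 12.4% and 2.11% of all genes, and 37.7% with any. Among the other LINC complex genes, 4 of 6 had only lower pairs with TMM and 2 with the trend removed. The testis gene SUN5 had a contact over 100 kb that was higher, at 2.97 and 2.11 CPM in knockdown cells, against 1.75 and 1.37 CPM in control cells (0.70, SE 0.21, adjusted p = 0.0125). Of the 11 SUN5 pairs, 3 were higher and 1 lower with TMM. KASH5 (-0.44) and SUN3 (-0.27) were lower within a bin, and the pairs given for SUN5, KASH5 and SUN3 passed with the trend removed too.

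Genes of LEM-domain and other inner-membrane proteins leaned to lower contacts, with 8 of the 9 with listed pairs only lower with TMM and 6 with the trend removed. LEMD2 had a contact over 200 kb with 2.23 and 2.41 CPM in knockdown cells, against 3.65 and 3.89 CPM in control cells (-0.70, SE 0.17, adjusted p = 0.00127). EMD, the emerin gene, had one over 100 kb with 2.88 and 3.11 CPM in knockdown cells, against 4.28 and 4.90 CPM in control cells (-0.61, SE 0.15, adjusted p = 0.0015), and ANKLE2 one over 150 kb at -0.56 (SE 0.21, adjusted p = 0.0473). These EMD and ANKLE2 bins lie 1.15 and 0.45 Mb from a chromosome end. All 6 torsin genes and partners had only lower pairs with TMM, led by TOR1AIP2 (-0.43), TOR2A (-0.40) and TOR3A (-0.29) within bright bins. These genes are not separate observations, as TOR1A and TOR1B shared the bin that was lower. Of the 42 pairs of this list, 5 were lower with TMM, near the 10.5% of all pairs. With the trend removed, 1 of the 6, TOR2A, had a lower pair, and it was not the pair called with TMM. The pairs of TOR1AIP2, TOR2A and TOR3A just given did not pass.

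Of the lamin processing genes, 3 of 5 had only lower pairs with TMM, and 2 only lower and 1 only higher with the trend removed. ICMT, which methylates the carboxyl end of farnesylated lamins, had a contact over 100 kb at 3.02 and 3.16 CPM in knockdown cells, against 4.54 and 5.32 CPM in control cells (-0.67, SE 0.15, adjusted p = 0.000252). RCE1, the protease that acts before it, had a pair at -0.34, and FNTB, a farnesyltransferase subunit, one at -0.17, not past the threshold once the trend was removed, while another FNTB pair then passed as higher. Of 19 nuclear pore genes, 10 had only lower, 2 only higher, 3 both and 4 no differing pairs with TMM, and 4 had only lower, 2 only higher, 2 both and 11 none with the trend removed. NUP210, a membrane pore protein, had a contact over 200 kb that was higher, at 3.26 and 2.81 CPM in knockdown cells, against 1.86 and 2.02 CPM in control cells (0.64, SE 0.19, adjusted p = 0.0103). Of the 29 NUP210 pairs, 3 were lower and 1 higher with TMM, and 2 lower and 1 higher with the trend removed. NUP93 (-0.55) and NUP188 (-0.53), both of the inner ring of the pore, had lower contacts over 200 and 100 kb. NUP93 also had 1 higher pair in each fit. The pairs given for NUP210, NUP93 and NUP188 passed with the trend removed.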

How the data were processed

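Micro-C libraries of SH-SY5Y cells were compared, 2 of TDP-43 knockdown and 2 of control cells. Per the submitters' processing notes, reads were processed with HiC-Pro on hg38, with no versions given, and what the merged libraries in the titles combine is not stated. Per the file headers, the authors' deposited table gives raw contact counts for pairs of 50 kb bins, their log2 fold change and log2 mean abundance, an F score, and p-values raw and adjusted. The totals cover listed pairs only, not the full depth of a library.

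Counts were fitted here with edgeR 4.0.16 (limma 3.58.1, R 4.3.3) by TMM scaling, glmQLFit and glmQLFTest over all 89239 pairs, with Benjamini-Hochberg adjustment and a threshold of 0.05. filterByExpr removed 0 pairs. Spread between libraries gave a common dispersion of 0.00812. A second fit used loess offsets, whose fold changes lay within 0.00237 (log2) of the authors' (r = 0.999997). Gene sums were fitted over 18699 protein-coding genes of RefSeq GRCh38.p14, gene bodies as annotated. The fits were tested on simulated data. Alternatives were DESeq2 1.42.0, a replicate block, each library left out, the authors' own table, TMM by distance class, no filter, a threshold of 0.01 and other choices of pairs, with library totals added after seeing the data. Positions are as in the files.

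The genes, lists and tests were chosen with earlier results of these data known. All 9 genes are named, each with the start bin and its largest pair past the threshold, and of each list up to 3 genes by the largest change. Other pairs were described after their values were seen. Gene density, compartments and reads were not analysed here.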

Additional observations from a re-analysis of the deposited data

How the results depend on the processing

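All listed pairs gave 14469 calls with TMM, 22080 with library totals, 8738 at a threshold of 0.01 and 4910 to 16764 with 1 library left out. The share of higher pairs among these calls was 35.5% with TMM, 79.0% with library totals, 23.9% by DESeq2, 45.5% after the loess fit and 45.7% by the p-values of the authors' deposited table, and 17.9% and 21.4% without knockdown replicate 1 and 2. Among the 117 pairs it was 0% with TMM and 45.8% with library totals (13 lower, 11 higher). The 21 calls among the 117 pairs became 13 at a threshold of 0.01, 13 where both bins had to lie in the gene, 16 by DESeq2 and 11 to 25 with 1 library left out, the lowest without knockdown replicate 1. The 7 gene sums past the threshold became 3 over between-bin pairs alone, SUN1 and LMNB2 lower and SYNE2, not among the 7, higher. Other envelope genes with a differing pair were 37 with TMM, 22 with the trend removed and 19 to 37 with 1 library left out. Signs turned for the LMNA sum (0.10 with the trend removed), the LMNA start bin (0.12 with the trend removed, 0.118 in the authors' deposited table), the other LMNA bin (0.19 and 0.185), the LMNB1 and TMPO sums over between-bin pairs (0.0422 and 0.0327, not past the threshold), the SYNE1 sum (-0.0023 by DESeq2, -0.017 with the trend removed, not past the threshold) and the within-bin ratio of LMNA over LMNB1 (-0.0032, groups overlapping); beyond the loess curve, the cause was not tested. The libraries share only a replicate number (correlation of same-numbered deviations 0.0192), and a fit with the replicate block gave 15663 calls among all pairs, 22 among the 117, 7 gene sums and 38 other envelope genes. Libraries were left out with TMM scaling only. The 48 between-bin pairs at 1 to 3 CPM had a median SE of 0.21 (log2), the smallest change called among them was 0.51 in size, and changes of up to 0.60 did not pass.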
